A study of Mus musculus with 2 samples.

Results

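Eosinophils, basophils and mast cells are granule-bearing leukocytes, and 10 of their genes were followed in mouse spleen. They were picked by name, with earlier results of these data known. The granule genes were Epx, Prg2, Mcpt8, Cpa3 and Cma1 and the surface receptor genes Ccr3, Il5ra, Siglecf, Ms4a2 and Fcer1a. All 10 had a probe on both arrays, out of 20649 genes named there, and for 9 of them the signal stood well above background in PBS, SiO2 or both. The study injected mice and compared a PBS (phosphate-buffered saline) spleen, the control, with a SiO2 (silica) remodelled spleen, both harvested on day 19 after the first injection. Each group was a single one-colour Agilent array that carried RNA pooled from 5 spleens of female mice. Strain and age are not given in the sources used here. Both pools went through a blood RNA kit that lyses red and white cells separately and through globin removal, so the RNA is that of the cells which this preparation kept.

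Eosinophils store toxic cationic proteins in large granules, which are packed while the cell matures in the bone marrow, and they mature and survive under interleukin-5. Basophils and mast cells carry the high-affinity IgE receptor and store proteases, histamine and proteoglycan. GATA1 and GATA2, zinc-finger factors, and members of the C/EBP family set up these lineages. In the spleen these cells are scarce beside lymphocytes, red pulp macrophages and the erythroid and myeloid precursors that the mouse organ also holds. In such bulk samples, fewer cells of a type and less RNA per cell cannot be told apart.

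RefSeq promoter windows (build GRCm38.p6, 250 bases before to 50 after the gene start) were found for 9 of the 10 members, all but Prg2. Those of the granule genes Epx and Mcpt8 and of the receptors Ccr3 and Il5ra are shown, because they are the granule genes called higher that have a window and the receptors that lay below 0. Each is written 5′ to 3′ on the strand of the gene, and capitals mark the GATA letters GATAA or, on the other strand, TTATC.
Epx, chr11:87875487-87875786, minus strand: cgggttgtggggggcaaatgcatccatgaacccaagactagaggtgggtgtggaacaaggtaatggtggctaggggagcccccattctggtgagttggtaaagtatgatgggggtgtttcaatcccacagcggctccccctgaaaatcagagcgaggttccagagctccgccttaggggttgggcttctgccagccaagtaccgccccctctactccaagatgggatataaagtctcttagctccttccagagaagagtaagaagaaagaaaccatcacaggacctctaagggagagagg
Mcpt8, chr14:56085148-56085447, minus strand: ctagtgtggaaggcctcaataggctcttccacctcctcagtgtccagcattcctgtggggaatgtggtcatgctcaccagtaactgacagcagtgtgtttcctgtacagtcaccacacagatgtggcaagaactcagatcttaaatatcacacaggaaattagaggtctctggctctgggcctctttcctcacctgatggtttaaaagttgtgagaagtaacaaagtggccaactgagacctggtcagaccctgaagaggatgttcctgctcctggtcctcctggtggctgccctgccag
Ccr3, chr9:124021721-124022020, plus strand: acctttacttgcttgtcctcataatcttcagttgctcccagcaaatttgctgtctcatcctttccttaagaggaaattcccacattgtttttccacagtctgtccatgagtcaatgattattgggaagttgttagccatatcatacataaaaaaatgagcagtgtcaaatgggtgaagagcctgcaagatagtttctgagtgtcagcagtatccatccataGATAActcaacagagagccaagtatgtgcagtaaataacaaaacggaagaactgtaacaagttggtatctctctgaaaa
Il5ra, chr6:106748988-106749287, minus strand: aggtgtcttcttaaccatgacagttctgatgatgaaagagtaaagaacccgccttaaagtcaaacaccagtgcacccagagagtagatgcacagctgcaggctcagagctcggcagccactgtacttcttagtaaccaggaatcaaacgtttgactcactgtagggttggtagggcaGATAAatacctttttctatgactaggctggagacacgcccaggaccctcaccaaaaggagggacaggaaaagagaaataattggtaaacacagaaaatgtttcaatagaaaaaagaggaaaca
The letters GATAA were in 7 of the 9 windows, on either strand, and in 25.4% of all 32851 promoter windows of the same length. They were in the windows of all 5 receptors and of the granule genes Cpa3 and Cma1. In Ccr3 the match started at position -29 from the gene start and in Il5ra at -73, while Ms4a2, the β chain of the IgE receptor, had 3 matches. The windows of Epx and Mcpt8 did not hold these letters. A C/EBP motif, TTGCNNAA on either strand, was in 1 of the 9, that of Fcer1a, against 10.8% of all windows. These matches describe letters in a window and are not evidence of binding.

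Values below are the scanner's processed signal, which is background-subtracted and linear. The ± is the software's own error estimate for the 1 spot of a probe on that array, and it covers the spot and not animals, pools or labelling. Differences are log2 signals of SiO2 minus PBS after each array was set to its 75th percentile, a signal of 669.5 in PBS and 469 in SiO2, so equal signals mean a somewhat higher level in SiO2 after scaling. With 1 pool a group no test across samples is possible, and a gene was called higher or lower at a difference of at least 2-fold. Spots well above background made up 75.5% in PBS and 74.9% in SiO2, and the median difference over all 16774 genes measured was 0.03. The B cell and T cell markers of the spleen were present and had medians of -0.57 (9 genes) and -0.26 (9 genes). Macrophage markers had a median of -0.86 (8 genes) and splenic stroma -0.50 (7 genes).

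Most granule genes passed the 2-fold line upward, and none of the 4 receptors measured did. Of the 5 granule genes, 3 were at least 2-fold higher in SiO2, 1 was lower and 1 lay within 2-fold, with a median difference of 1.82. Of the 4 receptors measured, 0 were higher, 1 was lower and 3 lay within 2-fold, with a median of -0.24. By sign, 2 of them lay above 0 (Siglecf and Fcer1a) and 2 below. Over all genes, 6.62% were at least 2-fold higher and 3.69% at least 2-fold lower. Among the 25% of genes with the lowest mean signal the shares were 6.75% and 4.34%. With shares this small, a count of 0 higher among 4 receptors does not set them apart from genes at large. The granule median was thus 2.06 above the receptor median, from 5 and 4 genes that are not replicates. This gap was between 1.33 and 2.07 under the 7 other settings tried, though not always from the same genes. For Epx, Ccr3 and Fcer1a no value from the authors' data was used, and with no filter or floor Ms4a2 entered below background. Centring B and T cell markers on 0 and median scaling move every gene by the same amount, so neither could change the gap. Means over probes altered only Siglecf among the members, which left the gap at 2.06. The receptor median itself turned positive with B and T cell markers centred on 0 (0.16) and with no filter or floor (0.35).

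**Figure D1:**
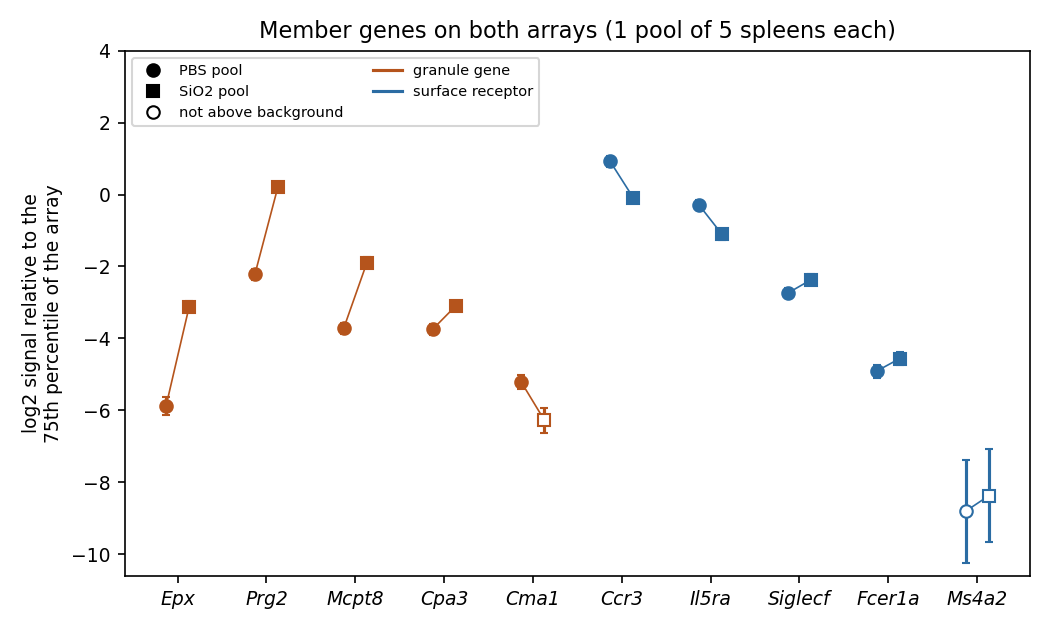
Signal of each member on each array, as log2 relative to the 75th percentile of that array (vertical axis), for PBS (circles) and SiO2 (squares); bars are the software's spot error and open symbols were not above background. The lines of Epx, Prg2 and Mcpt8 climb steeply, those of Ccr3 and Il5ra descend, and Ms4a2 is open on both arrays; heights of different genes are not comparable.

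Eosinophil peroxidase, Epx, the haem enzyme of the eosinophil granule that makes hypohalous acids, had the largest difference of the members in the main setting. Its signal was 11.4 ± 1.92 in PBS, close to background, and 53.9 ± 5.54 in SiO2. The SiO2 pool was 6.77-fold higher after scaling, a log2 difference of 2.76 ± 0.29, and 29th from the top of all genes. The unscaled signals differed 4.74-fold. Because the PBS spot was dim, the size of this difference depended on the background: under normexp, a model-based background correction, it was 1.15. That was below Prg2 (2.06) and Mcpt8 (1.25), so the first place of Epx among the members depended on it too.

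Prg2 encodes major basic protein, the arginine-rich protein that forms the core of the eosinophil granule. Its signal was 144 ± 14.5 in PBS and 548 ± 54.8 in SiO2, so both arrays were well clear of background. SiO2 was 5.43-fold higher (log2 2.44 ± 0.20) and ranked 59th, and the difference was 2.06 under normexp and 2.40 in the authors' deposited values. Its neighbour on chromosome 2 and close relative Prg3, a second form of major basic protein, did not follow it. Prg3 had a signal of 230.2 in PBS and 96.4 in SiO2, a difference of -0.74 ± 0.21, within 2-fold. Prg2 and Prg3 are adjacent in the RefSeq order of protein-coding genes and lay on opposite sides of 0 under all settings tried.

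Mcpt8 is a serine protease of mouse basophils and is widely used to mark them. Its signal was 50.7 ± 5.31 in PBS and 126 ± 12.7 in SiO2. This made SiO2 3.54-fold higher (log2 1.82 ± 0.21), the 210th largest difference, with 1.25 under normexp. Prss34, another protease of the mouse basophil granule, showed the same side: 50.6 in PBS and 158 in SiO2, or 4.47-fold higher (2.16 ± 0.21; 1.52 under normexp). Both basophil proteases were thus among the higher genes, each by 1 probe. Other genes of the lists that basophils carry did not all follow. Fcer1a (0.35), Hdc (-0.12), Cd200r3 (-0.17, dim in SiO2) and Il3ra (-0.73) were within 2-fold, while Il1rl1 (1.42) was higher.

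Cpa3, carboxypeptidase A3, is a granule protease of mast cells that basophils and some progenitors also make. Its signals were nearly equal, 49.7 ± 5.22 in PBS and 54.8 ± 5.64 in SiO2, and after scaling the difference was 0.65 ± 0.21, within 2-fold. It passed 2-fold only with B and T cell markers centred on 0, at 1.05. Cma1, a chymase of connective tissue mast cells, ran the other way. It was 17.9 ± 2.37 in PBS and 6.03 ± 1.45, not well above background, in SiO2. Against the lowest signal above background on the SiO2 array this was at least 2.05-fold lower, the lowest of the 5 granule genes. As a log2 difference it was -1.03 ± 0.40, so its error spans the 2-fold line. Under normexp Cma1 was at 0.22, on the other side of 0, so its direction rests on how background is treated.

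Cma1 and Mcpt8 bound a stretch of 7 neighbouring protein-coding genes on chromosome 14, the mast cell protease cluster. This stretch was looked at after the members' values were known. Of its 7 genes, 6 were above background on at least 1 array, 1 of them (Mcpt8) at least 2-fold higher and 1 (Cma1) lower. Between them Cma2 was at 0.20, Mcpt2 at 0.86, Mcpt9 at 0.75 as a bound and Mcpt4 at 0.13, and Mcpt1 was not above background. Mcpt2 (8.97 in PBS, 11.4 in SiO2) and Mcpt9 (6.95 in PBS, 8.7 in SiO2) were near background. Under normexp they were at 0.58 and 0.43. These proteases are close relatives, so signal shared between their probes cannot be told apart from their own.

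**Figure D2:**
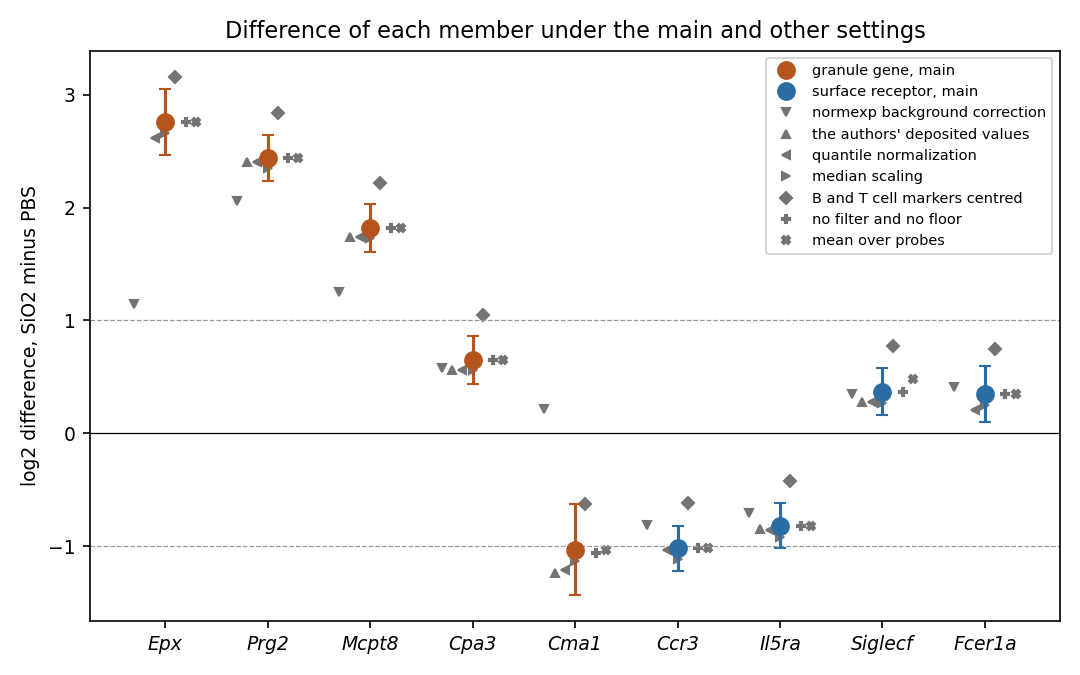
Log2 difference, SiO2 minus PBS (vertical axis), of the 9 members measured; large circles are the main values with the spot error of the difference, grey symbols the other settings, and dashed lines mark 2-fold. Epx, Prg2 and Mcpt8 stay above 2-fold under every setting that gave a value, Il5ra stays between 0 and the lower dashed line, and the grey symbols of Cma1 lie on both sides of 0.

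Ccr3, the eotaxin receptor that draws eosinophils into tissue, was lower in SiO2 at the edge of the 2-fold line. It was 1269 ± 127 in PBS and 440.1 ± 44.0 in SiO2, 2.88-fold lower before scaling. After scaling it was 2.02-fold lower (-1.02 ± 0.20), so its error spans the 2-fold line. It was within 2-fold under normexp (-0.81) and with B and T cell markers centred (-0.62), and below 0 under all 6 settings that gave it a value.

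Il5ra, the interleukin-5 receptor chain of eosinophils that some mouse B cells also carry, had the next lower difference. Its signal was 546 ± 54.6 in PBS and 217 ± 21.7 in SiO2, and the scaled difference was -0.82 ± 0.20, within 2-fold. It ranged from -0.92 to -0.42 under the other settings. All 9 B cell markers were below 0 as well, and their part in the value of Il5ra was not tested.

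Siglecf, an inhibitory sialic acid lectin of mouse eosinophils and some macrophages, was close to equal. Its brighter probe read 100.2 ± 10.2 in PBS and 90.5 ± 9.16 in SiO2. The scaled difference of 0.37 ± 0.21 was above 0 only because of the scaling, since the unscaled one was -0.15. A second probe was near background, 5.77 in PBS and 7.77 in SiO2, and not above it in PBS.

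The IgE receptor chains among the members gave little signal. Fcer1a, the chain that binds IgE, was 22.3 ± 2.81 in PBS and 19.8 ± 2.43 in SiO2, a scaled difference of 0.35 ± 0.25 and an unscaled one of -0.17. Ms4a2, its β chain, was not well above background on either array, with 1.49 in PBS and 1.41 in SiO2, so no fold is given. The shared γ chain Fcer1g, which many myeloid cells use, was bright at 2719.6 in PBS and 1398 in SiO2 (-0.45 ± 0.20). Neither Fcer1a nor Fcer1g passed 2-fold in either direction.

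By cell type the picture was mixed. Among the 5 eosinophil genes, the 2 granule genes were higher and Ccr3 lower, with a median of 0.37. Among the basophil and mast cell genes, 4 of 5 were measured, with Mcpt8 higher, Cma1 lower and a median of 0.50. Hence neither set of cell type genes lay on 1 side as a whole in the main setting. For the basophil and mast cell set this rested on Cma1 alone, a bound near background. Under normexp all 4 of its measured genes lay above 0: Mcpt8 at 1.25, Cpa3 at 0.58, Fcer1a at 0.41 and Cma1 at 0.22.

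**Figure D3:**
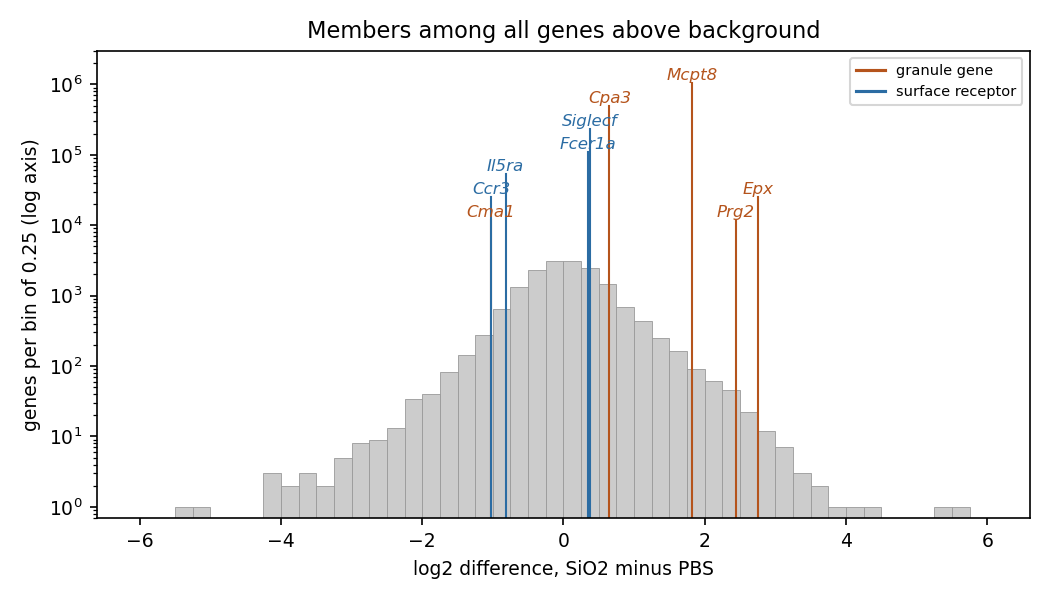
Number of genes (vertical axis, log scale) by log2 difference, SiO2 minus PBS, in bins of 0.25 for all 16774 genes measured; coloured lines mark the members and their heights only separate the labels. Epx and Prg2 stand in the thin upper tail, while Ccr3, Cma1 and Il5ra lie on the lower shoulder.

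Further granule and secreted effector genes of these cells were mostly within 2-fold. Of 15 measured from a list of 18, 2 were higher (Prss34 and Ear6) and 0 lower, with a median of 0.36. The shares over all genes were 6.62% higher and 3.69% lower. Ear6, of the eosinophil-associated ribonuclease family, was 2.23-fold higher (167 in PBS, 261 in SiO2). Its relatives Ear1 (0.95), Ear10 (0.36) and Ear2 (0.22) lay above 0 within 2-fold. These ribonucleases are near copies, so their probes may share signal. Under normexp Ear6 was at 0.95, within 2-fold. Hdc, which makes histamine, was at -0.12, and Srgn, the proteoglycan that holds granule proteases, at 0.13.

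The further receptors and receptor chains had a median on the other side of 0. Of 19 measured from a list of 22, 1 was higher and 0 lower, 13 lay below 0 and the median was -0.33. Over all genes 6.62% were higher and 3.69% lower, so these counts do not set the list apart from genes at large. The single higher gene was Il1rl1, the interleukin-33 receptor of mast cells, basophils and type 2 lymphocytes, at 2.68-fold (1168 in PBS, 2197 in SiO2), and its 3 probes ranged from 1.42 to 1.81. Csf2rb, the common chain with which the interleukin-5 receptor signals, was at -0.36 ± 0.20. Kit, the stem cell factor receptor of mast cells, was at 0.22 ± 0.20. The median of this list was 0.07 with B and T cell markers centred on 0. It was -0.04 over the genes with a value in the authors' data. Some of these genes are used by other cells, as Fcer1g is by many myeloid cells, and the part of those cells was not tested.

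Cytokines and attractants that act on these cells were split. Of 12 measured from 15, 2 were higher and 2 lower, beside 6.62% and 3.69% of all genes. The eotaxins differed in direction: Ccl11, a ligand of CCR3, was 27.7 in PBS and 55.3 in SiO2 (2.84-fold higher; 0.88 under normexp), while Ccl24, another of its ligands, was 86.8 in PBS and 18.0 in SiO2 (3.39-fold lower; -0.54 under normexp). Ccl8, a chemokine of macrophages, was 13.2-fold higher (29.5 in PBS, 272 in SiO2), a log2 difference of 3.72 that was 2.20 under normexp. Kitl, the ligand of Kit, was 2.05-fold lower (571 in PBS, 196 in SiO2; -0.88 under normexp). Il5 was 9.18 in PBS and not well above background in SiO2, which gives a bound of at least 1.05-fold lower (0.33 under normexp). With Il5 so near background, these arrays cannot show how this cytokine differed.

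Transcription factors of the lineages differed in both directions. Of 13 measured, 3 were higher and 1 lower, beside 6.62% and 3.69% of all genes. Cebpe, a C/EBP factor needed for the later granules of neutrophils and eosinophils, was 579 in PBS and 1712 in SiO2, 4.22-fold higher. Gata1 was 2.19-fold higher (7647 in PBS, 11728 in SiO2) and its cofactor Zfpm1 2.28-fold higher. Gata2, on the other hand, was at -0.79 ± 0.21 (209 in PBS, 84.6 in SiO2). Id2, an inhibitor of helix-loop-helix factors, was 2.07-fold lower. With B and T cell markers centred on 0, Id2 (-0.65), Kitl (-0.63), Cma1 (-0.63) and Ccr3 (-0.62) all lay within 2-fold. These factors are not private to granulocytes: Gata1 and Zfpm1 act in erythroid cells and Cebpe in neutrophils. Of 9 lipid mediator enzymes 1 was higher, the 5-lipoxygenase Alox5 at 2.08-fold (0.92 under normexp, 0.96 under median scaling), and 0 were lower. Ltc4s, the leukotriene C4 synthase, was at -0.82 ± 0.20.

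**Figure D4:**
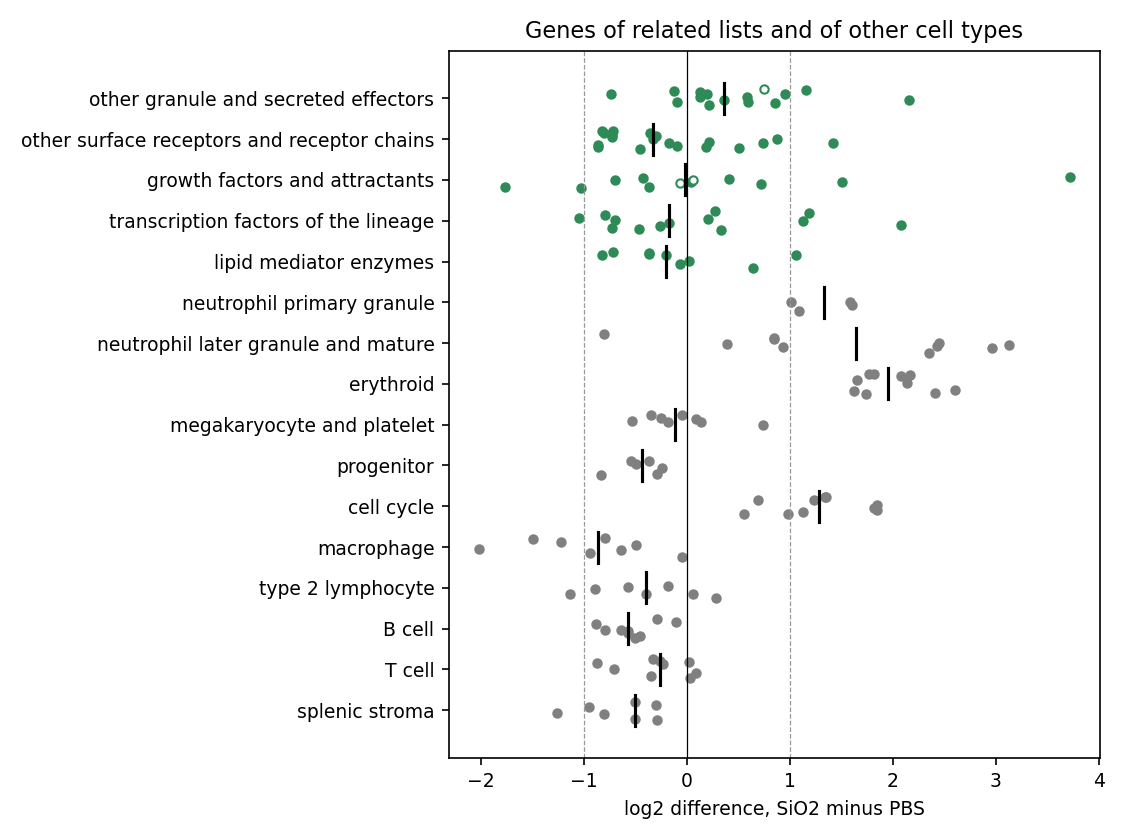
Log2 difference, SiO2 minus PBS (horizontal axis), of every measured gene of 5 related lists (green) and 11 lists of other cell types or processes (grey); bars are list medians, open points are bounds and dashed lines mark 2-fold. The erythroid, cell cycle and neutrophil lists sit to the right, while the macrophage list sits to the left.

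Markers of other cells that could hold some of these transcripts differed between the pools too. All 4 neutrophil primary granule genes were higher, with a median of 1.34, Prtn3 by just 2.01-fold (0.80 under normexp) and Mpo, the peroxidase most like Epx, at 2.99-fold. Under median scaling Prtn3 (0.91) and Ctsg (0.99) lay within 2-fold. Of 10 later granule and mature neutrophil genes, 5 were higher and 0 lower, with Ngp at 8.77-fold. Over all genes the shares were 6.62% and 3.69%. The median of these 10 was 1.64, and 0.80 over those with a value in the authors' data. Of the 10, 9 lay above 0, among them S100a9 at 0.39, and the receptor Cxcr2 was at -0.80. Erythroid genes were higher in 10 of 10, with a median of 1.95, and cell cycle genes in 7 of 10. Progenitor genes had 0 of 6 past 2-fold and a median of -0.43, and megakaryocyte genes 0 of 8 with -0.12 (0.13 under normexp). Among type 2 lymphocyte genes 1 of 7 was lower, Klrg1 at -1.13, and 0 were higher. Klrg1 was within 2-fold under normexp (-0.97) and with B and T cell markers centred (-0.73). The part of these cells in the granule gene differences was not tested.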

How the data were processed

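The members and gene lists were chosen with earlier results of these data known. The scanner files give spot intensity on a linear scale, deposited as made by Agilent Feature Extraction 11.0.1.1 per the file headers; the submitters' processing notes name version 9.1. Processed (background-subtracted) intensity was used without control spots and without 145 (PBS) and 148 (SiO2) spots with feature outlier flags. The 75th percentile of log2 intensity was subtracted per array, and spots of a probe were averaged. Probe accessions were matched to the RefSeq table of GRCm38.p6, for names and gene order only: 27217 of 39398 probes had 1 symbol. A gene took its brightest probe above background in either pool. A dim value was raised to the lowest value above background on its array only where it lay below that value. The authors' log2 values (deposited series matrix), made by an unstated normalization, were an alternative; for Epx, Ccr3 and Fcer1a none was used.

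All members were named. From each other list, genes at least 2-fold different were eligible, up to 5 a direction, with Gata1, Gata2, Cebpe, Il5, Ccl11, Ccl24, Kit, Fcer1g, Prg3, Hdc and Csf2rb; other names were picked after their values were seen. Over 300 probes with repeated spots, the SD of the difference had a median of 0.0613 (log2). Other settings were normexp (limma 3.58.1, offset 50, on the median spot signal), quantile and median scaling, centring on 18 B and T cell markers, no filter or floor, and means over probes. Steps were tested on simulated data.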

Additional observations from a re-analysis of the deposited data

How the results depend on the processing

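Among the 7 other settings, the number of members at least 2-fold higher stayed between 2 and 4, against 3. The number lower was 2 in the main setting, 0 with normexp, 1 in the authors' deposited values, which hold none for Ccr3, and 0 with B and T cell markers centred on 0. The granule median was 1.15 with normexp, 1.15 in the authors' values (4 genes, Epx not among them) and 2.22 with the markers centred. The receptor median was 0.16 with the markers centred and 0.35 with no filter or floor, where Ms4a2 enters below background. The granule minus receptor gap was 1.33 with normexp, 1.44 in the authors' values (the receptors there being Il5ra and Siglecf) and 1.48 with no filter or floor. Cma1 reversed with normexp, at 0.22. Centring the markers added 0.40 to every gene, and 15.4% of genes were then at least 2-fold higher and 1.49% lower; with normexp, which moved the median of all genes by 0.15, these were 3.90% and 1.54%. No leave-one-out was possible with 1 array a group. No paired analysis was possible because each group is a single pool. Signals near background, such as those of Epx in PBS, Cma1, Fcer1a, Il5, Mcpt2 and Mcpt9, limit the size that can be given. The cause of the other shifts was not tested.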
